A study of Mus musculus with 23 samples.

Results

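Gene expression in the hippocampus of wild-type (WT) mice was compared between 5 libraries made after chronic social defeat stress (CSDS), numbered 1 to 5, and 5 control libraries, numbered 6 to 10. Defeat lasted 10 days. On each day the mouse spent 5 min in the cage of an unfamiliar aggressive CD-1 mouse, and then stayed behind a clear perforated divider until a new aggressor was introduced after 24 h. The labels give neither strain, age nor sex, nor how the controls were housed, nor the time of day or the delay between the last encounter and tissue collection. An 11th WT library, 9B, is called a control in its title and CSDS in its treatment field, and was left out of the comparison. The 10 libraries are part of a series of 23, in which libraries labelled Nrsn2-KO (5 control, 5 CSDS) serve here only to ask whether an effect differed with that label. Of 39017 genes in the deposited WT table, 18274 had a mean of at least 0.5 RPKM (read counts corrected for gene length and for library depth) over the 10 libraries, and these are the genes described. They were tested as log2(RPKM + 0.5) with limma, and a gene is called higher or lower at a Benjamini-Hochberg adjusted p under 0.05 over all 18274. Effects are CSDS minus control, on that log2 scale, ± SE, with n = 5 libraries per group. Because of the added 0.5, changes of low genes are understated.

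Social defeat is a model of repeated psychosocial stress. A hippocampal neuron that fires lets calcium into the cell, and kinases then act on factors already present, such as CREB and SRF, to switch on immediate early genes within minutes. Some of these encode transcription factors (the AP-1 family), others act at the synapse, and many of their messages decay within hours. The levels found in tissue therefore depend on what the animal experienced shortly before it was killed, besides slower states such as hormone level, body temperature and the circadian clock, each of which has its own responsive genes. In homogenised tissue, fewer cells of a type and less RNA per cell cannot be told apart.

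Markers of the hippocampal fields were present in all 10 libraries with ranges that overlapped between the groups, but no other tissue was compared. Prox1, of dentate granule cells, lay at 8.90 to 13.2 RPKM in controls and 11.0 to 12.2 RPKM after CSDS, the CA1 marker Wfs1 at 31.8 to 42.2 and 33.0 to 42, and Amigo2, of CA2 and CA3, at 7.53 to 8.87 and 7.58 to 8.65. Nrsn2, the gene named in the series title, was at 25.3 to 31.5 RPKM in controls and 27.3 to 33.3 RPKM after CSDS (0.03 ± 0.07, adjusted p = 0.8). Depth, recovered from the read steps of 11580 single-exon genes, was 36.73 to 55.61 M reads in controls and 37.73 to 52.78 M after CSDS. A few libraries stood apart. Control 10 held 56.5 RPKM of Xist, the RNA of the inactive X chromosome, and 0.163 RPKM of the Y-linked Ddx3y, whereas the other 9 libraries had at most 0.0543 RPKM of Xist and 9.73 to 12.97 RPKM of Ddx3y, so sex was not balanced between the groups. Control 6 held 16.9 RPKM of Ttr, the transthyretin gene of the choroid plexus, against 1476 to 4740 RPKM in the other controls. CSDS 3 was rich in haemoglobin RNA. For the main lists the count of members called is also given without these 3 libraries, a setting in which 740 (4.05%) of 18284 genes were called higher and 1143 (6.25%) lower. These genes and libraries were singled out after their values were seen.

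Differences between the CSDS and control libraries were many and mostly small. Of the 18274 genes, 4093 (22.4%) were called, 1806 (9.88%) higher and 2287 (12.5%) lower. The median called gene differed by 1.14-fold, and 3007 of the called genes (73.5%) by less than 1.2-fold. Only 185 reached 1.5-fold, 77 higher and 108 lower, and 49 reached 2-fold, 15 higher and 34 lower. In 3132 genes (17.1%) every CSDS library lay on 1 side of every control, and 2882 of these were called. Scaling each library to the same RPKM sum moved the median of all genes from −0.00 to −0.05 on the log2 scale and turned the split into 833 higher (4.56%) and 3543 lower (19.4%), so that 81.0% of the calls were lower in place of 55.9%. Other rescalings went the other way: median ratio scaling gave 1991 higher and 2155 lower, and quantile normalization 1991 and 2101. Small upward shifts shared by many genes therefore depend on the scaling. The main lists of that kind are given below on the deposited scaling and with equal RPKM sums, the rescaling that lowered the higher calls. In the authors' deposited table, 3739 of 17840 genes had a false discovery rate under 0.05, and 3106 of these were called here, all in the same direction, although the authors' control mean includes library 9B.

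Over the 2882 called genes whose groups did not overlap, library 9B lay nearer the control mean in 2477 (85.9%), inside the control range in 1782 (61.8%) and inside the CSDS range in 273 (9.47%). Its median position was 0.0646, where 0 is the control mean and 1 the CSDS mean. For most of these genes 9B thus lay with the controls, and the structural RNAs described further on were an exception. With 9B counted as CSDS, 1240 genes were called in place of 4093.

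**Figure D1:**
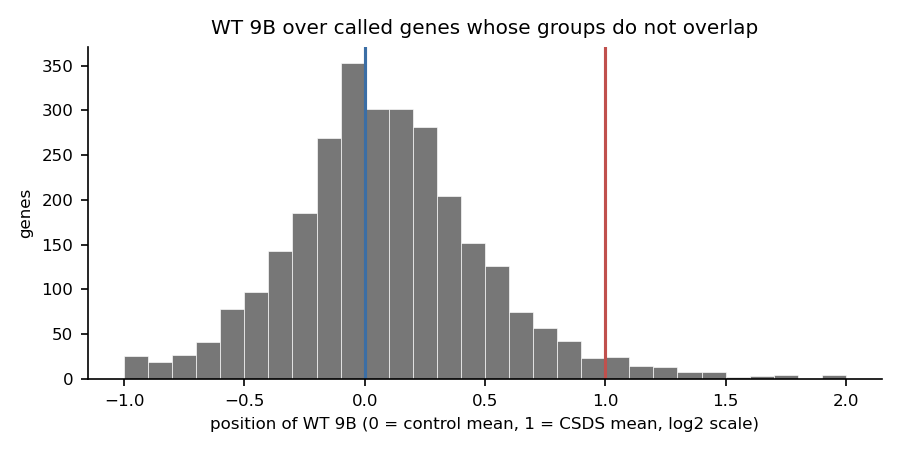
Position of library WT 9B between the control mean (0, blue line) and the CSDS mean (1, red line) for the 2882 called genes whose groups did not overlap, in bins of 0.1 on the log2 scale, with values beyond the axis counted in the end bars. The mass of the bars sits around the control mean, and the median position is 0.0646.

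Many genes switched on by neuronal activity were lower after CSDS. Of 21 immediate early transcription factor genes tested, 15 were called lower and none higher, with a median of −0.31 against −0.00 over all genes, and 14 were lower without the 3 libraries. Immediate early genes called higher numbered 1 without CSDS 2. Fos, which encodes the defining subunit of AP-1 (ENSMUSG00000021250, chromosome 12, 85473890 to 85477273, mm10), was at 4.44, 5.79, 3.80, 4.47 and 3.98 RPKM in controls 6 to 10 and 1.19, 1.89, 1.09, 2.18 and 0.996 RPKM in CSDS libraries 1 to 5. Every control held more than the highest CSDS library. The difference was −1.37 ± 0.17 (adjusted p = 0.00082), and the excluded 9B held 4.16 RPKM. Fosb, whose product pairs with Jun proteins and whose short form outlasts the stimulus, stood at 2.72, 3.26, 2.91, 2.79 and 2.87 RPKM in controls 6 to 10 and 1.08, 0.962, 0.923, 1.05 and 1.04 RPKM in CSDS libraries 1 to 5 (−1.17 ± 0.05, adjusted p = 7.2e-06). CSDS 1 to 5 lay within a narrow band of Fosb, well under the lowest control. Junb (−0.49 ± 0.08), Fosl2 (−0.48 ± 0.05), the zinc finger gene Egr3 (−0.51 ± 0.08) and the orphan receptor gene Nr4a1 (−0.26 ± 0.05) were also lower (adjusted p = 0.0024, 0.00045, 0.0024 and 0.0046). Egr1, which neurons also use as an activity gene, was at 10.0 to 14.7 RPKM in controls and 10.9 to 15.3 RPKM after CSDS and was not called (−0.02 ± 0.12, adjusted p = 0.92). Npas4, the activity gene most tied to calcium entry, was −0.38 ± 0.13, adjusted p = 0.058, and was called lower in 6 of 24 alternatives.

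Among 26 genes whose activity-induced products act at the synapse or are secreted, 14 were lower and 1 higher (median −0.16; 10 lower without the 3 libraries). Homer1, whose short activity-induced form unhooks metabotropic glutamate receptors from their scaffold, was at 13.3, 14.98, 13.5, 12.5 and 12.1 RPKM in controls 6 to 10 and 6.97, 8.47, 6.67, 7.66 and 7.00 RPKM in CSDS libraries 1 to 5. Every CSDS library held less than every control (−0.81 ± 0.07, adjusted p = 0.00022). Gene totals do not separate the short Homer1 form from the long ones. Inhba, encoding the activin subunit, fell by 0.77 (SE 0.08, adjusted p = 0.00037), Gadd45b, a DNA demethylation cofactor, by 0.55, Nptx1, a neuronal pentraxin that clusters AMPA receptors, by 0.45 and Arc, which drives AMPA receptor removal, by 0.45. Ptgs2, the inducible cyclooxygenase gene, was the exception and rose, from 3.89 to 5.05 RPKM in controls to 5.01 to 6.16 RPKM after CSDS (0.36 ± 0.07, adjusted p = 0.0053). Bdnf, counted over all its promoters together, was at 4.11 to 4.58 RPKM in controls and 4.37 to 5.04 RPKM after CSDS (0.10 ± 0.04, adjusted p = 0.13). S100a10, a gene of the antidepressant response, was at 7.12 to 8.18 RPKM in controls and 6.28 to 9.65 RPKM after CSDS (0.04 ± 0.11, adjusted p = 0.79).

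Genes of negative feedback on the MAP kinase pathway included many lower ones too. Of 17 such genes 9 were lower and 1 higher (median −0.13; 4 lower without the 3 libraries). Spred1, a Ras inhibitor, went from 19.4 to 22 RPKM in controls to 14.8 to 16.1 RPKM after CSDS (−0.38 ± 0.04, adjusted p = 0.00032), the ERK phosphatase gene Dusp5 by −0.27 and Errfi1, an inhibitor of the EGF receptor, by −0.24. Spred3 was the gene called higher (0.13 ± 0.03, adjusted p = 0.0059). Regulators of activity-dependent chromatin went both ways, with 7 of 29 lower and 5 higher (2 higher and 11 lower with equal RPKM sums, 1 and 3 without the 3 libraries). Hdac4, a class IIa deacetylase that shuttles to the cytoplasm when neurons fire, had 9.54, 9.20, 8.88, 9.27 and 8.29 RPKM in controls 6 to 10 and 5.68, 6.00, 6.12, 5.79 and 5.65 RPKM in CSDS libraries 1 to 5. No CSDS library came within 2 RPKM of the lowest control (−0.59 ± 0.04, adjusted p = 0.00014). Creb1 itself was −0.25 ± 0.04, adjusted p = 0.0018, Crem, which encodes inducible CREB repressors, −0.39 ± 0.06, and Tet2, a DNA demethylase gene, rose by 0.21 ± 0.03 (adjusted p = 0.0027). Leaving out a single library moved the count of MAP kinase feedback genes called lower to 5 without control 6, and that of chromatin genes called lower to 4 without CSDS 1 or 3.

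A cyclic AMP response element (CRE) with the full palindrome TGACGTCA, to which CREB binds, was sought on both strands of RefSeq promoters (GRCm38.p6, from 250 bases before to 50 after each start). It lay in 1.79% of all 32851 promoters. Of 392 tested genes that carry it, 17.9% were lower and 10.5% higher, beside 12.9% and 10.7% of the 11400 tested genes with a promoter in the table, so most genes with the palindrome were not called. Stretches around it are shown for 3 lower genes, 5′ to 3′ on the gene's strand, with the palindrome in capitals: Pcsk1, which cleaves peptide precursors, Dusp1, a MAP kinase phosphatase gene, and Dio2, the thyroid hormone activating deiodinase gene.
Pcsk1, chr13:75089759-75089806, plus strand: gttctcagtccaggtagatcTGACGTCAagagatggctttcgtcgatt
Dusp1, chr17:26508588-26508635, minus strand: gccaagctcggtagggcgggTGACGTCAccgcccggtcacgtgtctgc
Dio2, chr12:90739106-90739153, minus strand: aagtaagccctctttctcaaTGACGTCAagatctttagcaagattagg
Pcsk1 stood at 7.16 to 9.22 RPKM in controls and 4.89 to 5.76 RPKM after CSDS (−0.56 ± 0.07, adjusted p = 0.00063), Dusp1 at 4.15 to 5.42 and 2.93 to 3.91 (−0.34 ± 0.08, adjusted p = 0.013). The matches describe letters in a window and do not show that a factor binds there.

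**Figure D2:**
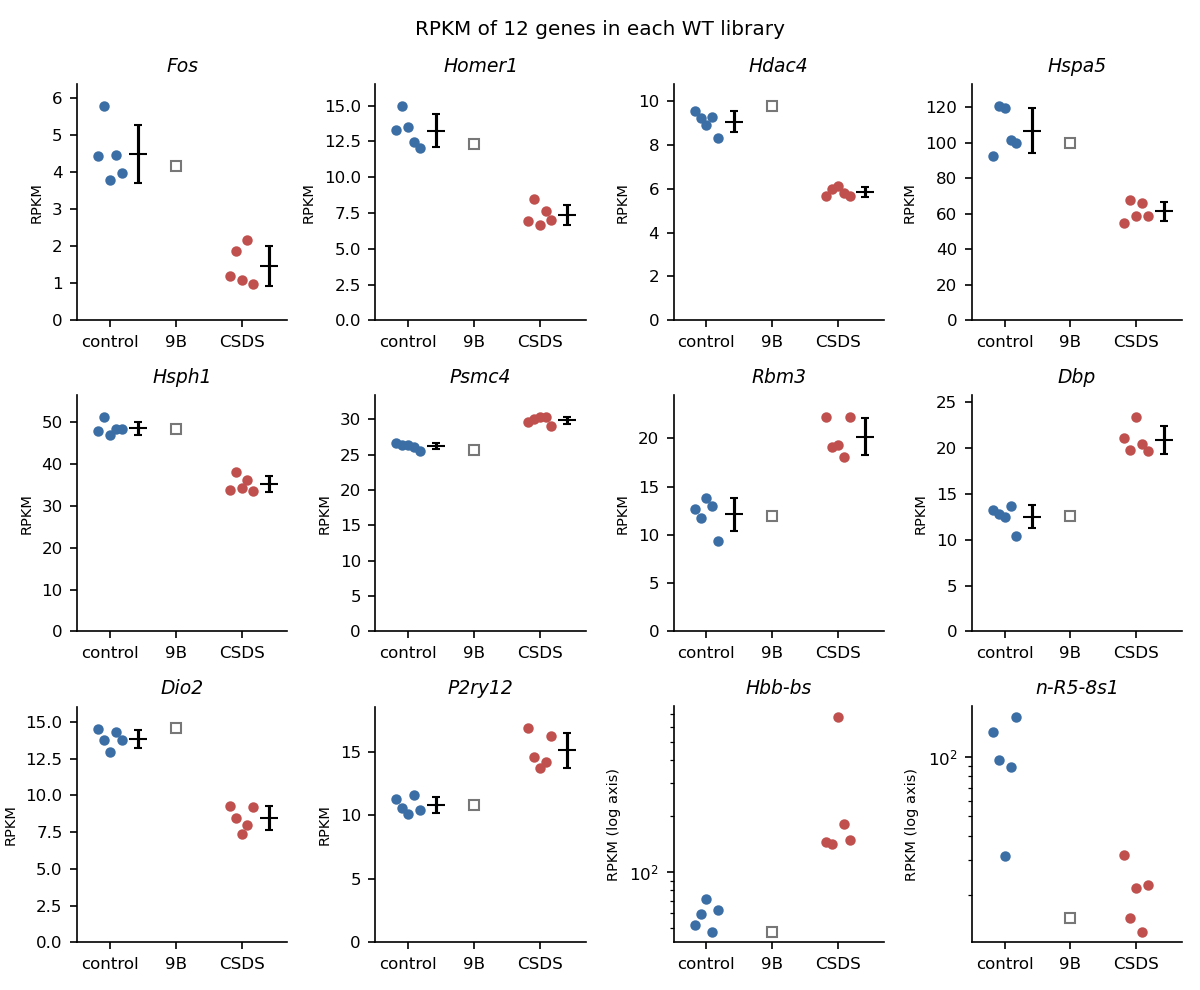
RPKM of 12 genes in each WT library: controls (blue), the excluded 9B (open square) and CSDS (red), with mean and SD bars (n = 5) in the panels with a linear axis that starts at 0. The Hbb-bs and n-R5-8s1 panels have a log axis and no bars. In every panel except n-R5-8s1 the control and CSDS points do not overlap, and 9B lies with the controls except for n-R5-8s1.

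Cytosolic chaperones of the heat shock family formed the list with the most members called. They hold newly made or damaged proteins until these fold, and the heat shock factor HSF1 drives many of them. Of 31 genes, 24 were lower and 1 higher (median −0.23), and 22 were lower without the 3 libraries. In all 24 lower genes every CSDS library lay under every control. The gene called higher was Hspa2 (0.13 ± 0.04, adjusted p = 0.024), and not without CSDS 4 (adjusted p = 0.053). Hsph1, an HSP70 exchange factor, was at 47.8, 51.3, 47.1, 48.3 and 48.5 RPKM in controls 6 to 10 and 33.8, 38.1, 34.3, 36.3 and 33.6 RPKM in CSDS libraries 1 to 5 (−0.46 ± 0.04, adjusted p = 0.00017). The 2 groups were separated by a gap wider than either group. The inducible HSP70 genes Hspa1a (−0.62 ± 0.12) and Hspa1b (−0.72 ± 0.14), near-identical copies that may share reads, were lower. Hspa1b ranged over 8.03 to 14.5 RPKM in controls and 6.23 to 6.92 after CSDS. Abundant members moved less: Hspa8, the constitutive HSP70, by −0.29 ± 0.05 from a control mean of 481 RPKM, Hsp90aa1 by −0.33 ± 0.04 and its cofactor genes Chordc1, Stip1 and Ahsa1 by −0.44, −0.27 and −0.23 (adjusted p of 0.0034 or less in each). Hsf1 itself (−0.10 ± 0.04, adjusted p = 0.082) and the mitochondrial chaperonin Hspd1 (−0.07 ± 0.03, adjusted p = 0.17) were not called, while Hspe1, which shares a promoter with Hspd1 and encodes its lid, was (−0.19 ± 0.04, adjusted p = 0.013).

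Other parts of the folding and degradation machinery gave other counts. Of the 8 genes for the CCT chaperonin, which folds actin and tubulin, 1 was called lower, Cct4 (−0.10 ± 0.03, adjusted p = 0.022), and its call was lost without CSDS 1 or CSDS 3 (adjusted p = 0.054 and 0.052). Of 31 genes of the proteasome, which degrades tagged proteins, 12 were higher and none lower (median 0.07), 6 higher without the 3 libraries and 4 with equal RPKM sums. Psmc4, a base ATPase, was at 26.6, 26.4, 26.3, 26.1 and 25.4 RPKM in controls 6 to 10 and 29.6, 30.02, 30.3, 30.3 and 29.1 RPKM in CSDS libraries 1 to 5 (0.19 ± 0.02, adjusted p = 0.00047). These were small rises in groups with little spread. The catalytic-core genes Psmb3 (0.22 ± 0.03) and Psmb2 (0.19 ± 0.03) were higher too.

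Many genes of endoplasmic reticulum (ER) chaperones were lower. These chaperones fold secreted and membrane proteins, and the unfolded protein response raises their genes through the factors ATF6 and XBP1, which bind the ER stress element (ERSE). Of 28 genes, 18 were lower and none higher (median −0.23; 16 lower without the 3 libraries). Hspa5, the ER member of the HSP70 family (ENSMUSG00000026864, chromosome 2, 34771970 to 34777547), had 92.5, 121, 119, 102 and 99.9 RPKM in controls 6 to 10 and 55.1, 67.8, 59.0, 65.8 and 58.9 RPKM in CSDS libraries 1 to 5. The gap between the groups was wider than the range of the CSDS libraries (−0.79 ± 0.08, adjusted p = 0.0004). The largest change in the list was in Sdf2l1, a cofactor of Hspa5, at 7.90 to 11.5 RPKM in controls and 4.21 to 5.70 RPKM after CSDS (−0.85 ± 0.11, adjusted p = 0.00084). Xbp1 fell by 0.53 (adjusted p = 0.00043), the secreted factor gene Manf by 0.50 and Calr, a lectin chaperone gene, by 0.48. Ddit3, the pro-death factor of prolonged ER stress, was at 10.4 to 11.4 RPKM in controls and 9.68 to 10.7 RPKM after CSDS (−0.09 ± 0.04, adjusted p = 0.098).

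The ERSE was searched as CCAAT, any 9 bases and CCACG, on both strands. It occurred in 39 of 32851 promoters (0.119%) and in 19 tested genes. Of these 9 (47.4%) were called lower, beside 12.9% of all tested genes with a promoter. All 9 were genes of ER folding or quality control: Hspa5, Hsp90b1, Pdia6, Creld2, Calr, Derl3, Dnajc3, Canx and Syvn1. The gene called higher was Zfp57, and the other 9 were not called. The call of Canx was lost without control 7 or 10 or CSDS 1, 3, 4 or 5 alone (adjusted p up to 0.07). The match was described with no test, since ER genes were chosen with earlier results known. Stretches from 5 lower genes are printed 5′ to 3′ on the gene's strand, with the whole match in capitals, which read as its reverse complement in Creld2 and in the second match of Hsp90b1.
Hspa5, chr2:34772005-34772063, plus strand: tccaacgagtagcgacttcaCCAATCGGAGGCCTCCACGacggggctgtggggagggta
Pdia6, chr12:17266471-17266529, plus strand: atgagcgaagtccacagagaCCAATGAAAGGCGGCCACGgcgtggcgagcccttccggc
Creld2, chr15:88819500-88819558, plus strand: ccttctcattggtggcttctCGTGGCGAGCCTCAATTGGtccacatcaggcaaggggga
Syvn1, chr19:6046512-6046570, plus strand: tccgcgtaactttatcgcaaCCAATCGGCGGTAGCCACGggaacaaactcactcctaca
Hsp90b1, chr10:86705513-86705676, minus strand: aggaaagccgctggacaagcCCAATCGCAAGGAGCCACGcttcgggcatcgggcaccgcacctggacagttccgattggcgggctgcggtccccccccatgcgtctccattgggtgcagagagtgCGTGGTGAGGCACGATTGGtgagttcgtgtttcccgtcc
The genes with these stretches had effects of −0.79 ± 0.08 (Hspa5), −0.54 ± 0.05 (Pdia6, a disulfide isomerase), −0.54 ± 0.08 (Creld2, a stress-induced ER protein), −0.22 ± 0.03 (Syvn1, the ubiquitin ligase of ER-associated degradation) and −0.46 ± 0.05 (Hsp90b1, the ER HSP90). The heat shock element, searched as GAA, TTC and GAA with 2 bases between each, or its inverse, lay in 64 tested genes. Of these 20.3% were lower and 12.5% higher, beside 12.9% and 10.7% of all tested genes with a promoter. Hspe1 carries 2 overlapping matches that lie on the promoter's opposite strands, in capitals here.
Hspe1, chr1:55088039-55088096, plus strand: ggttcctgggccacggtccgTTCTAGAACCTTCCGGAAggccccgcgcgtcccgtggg

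**Figure D3:**
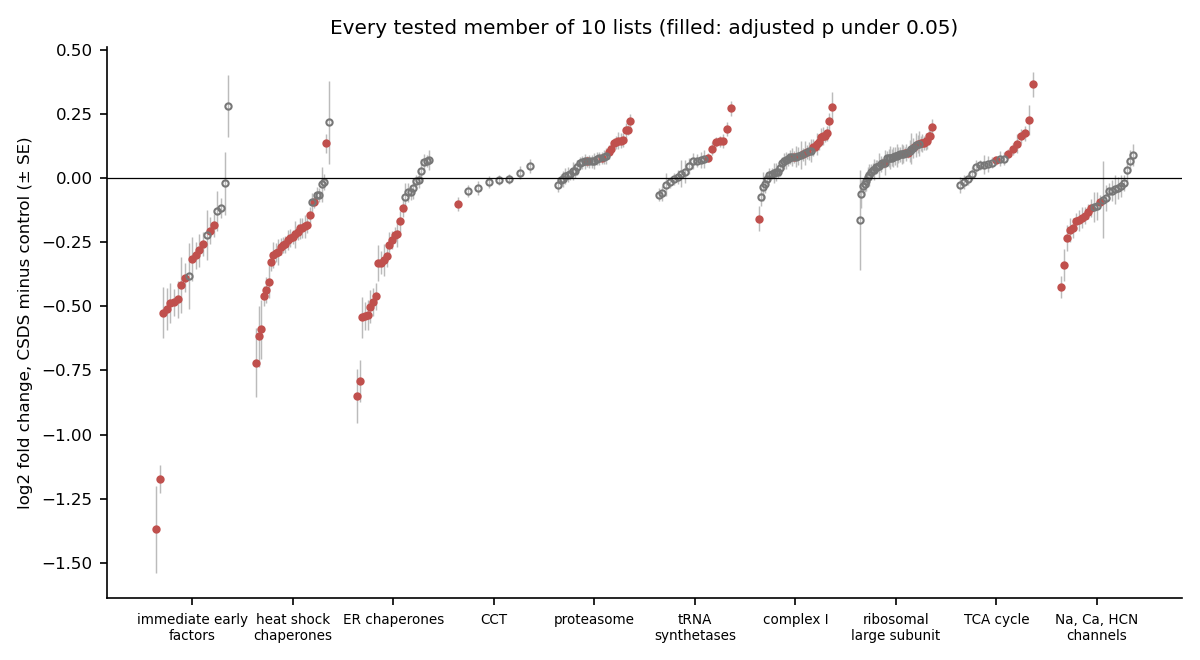
Log2 fold change (CSDS minus control, ± SE, n = 5 libraries per group) of every tested member of 10 lists, sorted within each list, with filled points for members called at adjusted p under 0.05. The immediate early, heat shock and ER lists lie mostly under 0, CCT lies at 0, and the medians of the proteasome, complex I, ribosomal and TCA lists lie slightly above it on the deposited scaling, with most of their members not called.

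Another branch of the stress response runs through ATF4, which induces amino acid genes when translation is held back. Of 25 targets 6 were lower and 2 higher (1 higher and 10 lower with equal RPKM sums, 1 and 3 without the 3 libraries), and leaving out a single library moved the count called higher to 4 without control 10. Atf4 was −0.10 ± 0.03, adjusted p = 0.03, a call lost when controls 6, 7 or 9 or CSDS 2, 4 or 5 were left out singly (adjusted p up to 0.067). Asns, the asparagine synthetase gene that marks this response, was higher (0.11 ± 0.03, adjusted p = 0.017; adjusted p = 0.2 with equal RPKM sums), as was Phgdh of serine synthesis (0.19 ± 0.04, adjusted p = 0.01). Ddit4, a brake on mTOR that glucocorticoid, hypoxia and ATF4 all raise, was lower (−0.42 ± 0.05, adjusted p = 0.00057). Genes of cytosolic aminoacyl-tRNA synthetases, which load tRNAs, included 7 of 20 called higher and none lower (5 without the 3 libraries, 4 with equal sums). Lars (9.92 to 10.8 RPKM in controls and 12.1 to 12.9 RPKM after CSDS; 0.27 ± 0.03, adjusted p = 0.00043) and Qars (0.19 ± 0.03, adjusted p = 0.0011) had the smallest p.

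A pair of RNAs that cells raise in the cold were higher after CSDS. Cirbp and Rbm3 encode RNA-binding proteins induced by mild cooling and lowered by warming, the reverse of heat shock genes. Rbm3 was at 12.6, 11.7, 13.8, 13.03 and 9.37 RPKM in controls 6 to 10 and 22.2, 19.1, 19.3, 18.02 and 22.2 RPKM in CSDS libraries 1 to 5. The groups were well apart, with the lowest CSDS library above the highest control (0.72 ± 0.10, adjusted p = 0.0012). Cirbp went from 11.8 to 14.6 RPKM in controls to 17.97 to 24.1 RPKM after CSDS (0.68 ± 0.09, adjusted p = 0.001). Rbm3os, an antisense RNA over Rbm3, was higher by 0.96 ± 0.12, but the library kit keeps no strand and its reads cannot be told apart from those of Rbm3. Of 4 cold-inducible genes these 2 were called, and Rtn3 (0.05 ± 0.03, adjusted p = 0.18) and Srsf5 (0.05 ± 0.03, adjusted p = 0.26) were not. Body temperature is not given in the labels.

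Clock genes were called in both directions. In the circadian clock, BMAL1 (Arntl) and CLOCK drive the Per and Cry genes through E-boxes, PER and CRY proteins repress them, and the output factors DBP and NFIL3 compete for D-boxes. Of 19 core genes 6 were higher and 5 lower (4 higher and 7 lower with equal RPKM sums, 4 and 5 without the 3 libraries), and of 12 output genes 4 were higher and 1 lower. Dbp was at 13.3, 12.8, 12.5, 13.6 and 10.4 RPKM in controls 6 to 10 and 21.1, 19.8, 23.4, 20.4 and 19.7 RPKM in CSDS libraries 1 to 5 (0.72 ± 0.07, adjusted p = 0.00032). Nfil3, its opponent, was at 3.97, 4.49, 4.29, 3.75 and 4.32 RPKM in controls 6 to 10 and 2.12, 2.59, 2.47, 2.75 and 2.19 RPKM in CSDS libraries 1 to 5 (−0.68 ± 0.07, adjusted p = 0.00034). The 2 antagonists thus moved oppositely, without overlap of the groups in either. On the side of the repressors, Cry1 (0.32 ± 0.05), Cry2 (0.25 ± 0.03), Per2 (0.19 ± 0.04) and Per3 (0.29 ± 0.05) were higher, while the activators Arntl (−0.23 ± 0.04) and Clock (−0.24 ± 0.04) were lower. The output genes Ciart (0.70 ± 0.09), Tspan4 (0.59 ± 0.06) and Usp2 (0.37 ± 0.06) were higher, at 2.59 to 3.63 against 4.80 to 6.25 RPKM for Ciart. Per1, which stress hormones also induce, was 0.08 ± 0.04, adjusted p = 0.2, and Nr1d1, the REV-ERB alpha gene, −0.10 ± 0.04, adjusted p = 0.085. Output genes called lower numbered 2 without CSDS 3 or 5. The labels give no time of day at collection, and its part in these differences was not tested.

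Ciart and Per3 carry repeated clock elements, shown 5′ to 3′ on the gene's strand with the E-box CACGTG of Ciart and the D-box TTATGTAA of Per3 in capitals.
Ciart, chr3:95882247-95882364, minus strand: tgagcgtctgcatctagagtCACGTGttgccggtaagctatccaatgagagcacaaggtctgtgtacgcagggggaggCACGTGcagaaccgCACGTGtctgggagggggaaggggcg
Per3, chr4:151044796-151044890, minus strand: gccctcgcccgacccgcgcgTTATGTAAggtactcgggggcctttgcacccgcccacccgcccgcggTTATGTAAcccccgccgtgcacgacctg
The D-box lay in 0.938% of all promoters and in 85 tested genes, 14.1% of them higher and 5.88% lower. The E-box lay in 7.15% of promoters and in 1291 tested genes, 12.1% higher and 12.6% lower, which is close to the 10.7% and 12.9% of all tested genes with a promoter.

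More splicing factor genes were called lower than higher. SR and hnRNP proteins choose splice sites, and many control their own messages by retained introns or poison exons that gene totals do not resolve. Of 27 genes 12 were lower and 4 higher (median −0.05; 7 and 1 without the 3 libraries). Hnrnpc, which blocks cryptic exons, was at 71.5, 74.0, 69.4, 70.1 and 73.3 RPKM in controls 6 to 10 and 57.8, 61.9, 56.4, 58.7 and 57.4 RPKM in CSDS libraries 1 to 5 (−0.29 ± 0.03, adjusted p = 0.00034). Its CSDS libraries all lay at least 7 RPKM under the lowest control. Tra2a (−0.37 ± 0.04), Srsf7 (−0.31 ± 0.04), Srsf3 (−0.24 ± 0.03) and Hnrnph1 (−0.23 ± 0.03) were lower too, and Hnrnpdl was higher (0.20 ± 0.04, adjusted p = 0.0075). Among 20 kinases and regulators of splicing that retain introns, 6 were lower and 1 higher, and without the 3 libraries 1 was lower. Upf2, a factor of nonsense-mediated decay, was among the genes of smallest p, at 13.9 to 14.1 RPKM in controls and 10.5 to 11.5 RPKM after CSDS (−0.34 ± 0.03, adjusted p = 0.00014). The count of splicing factor genes called higher was 2 without CSDS 1 or 5, and that of the kinase and regulator list 2 without control 8 or CSDS 3.

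Genes that glucocorticoid raises were lower, where they changed. Corticosterone is released in acute stress, acts through the receptors Nr3c1 and Nr3c2 and induces a set of genes within hours. Nr3c1 was at 11.0 to 12.3 RPKM in controls and 11.5 to 11.97 RPKM after CSDS (0.01 ± 0.03, adjusted p = 0.81) and Nr3c2 at 22.2 to 26.02 and 23.2 to 26.4 (−0.00 ± 0.05, adjusted p = 0.96), so neither receptor was called. Of 27 receptor and responsive genes 9 were lower and none higher (median −0.12; 6 lower without the 3 libraries). Fkbp5, a chaperone of the receptor that serves as its usual readout, was at 11.0, 9.74, 9.67, 10.9 and 11.1 RPKM in controls 6 to 10 and 9.12, 8.98, 8.34, 8.08 and 9.80 RPKM in CSDS libraries 1 to 5. The groups overlapped, and the call (−0.23 ± 0.06, adjusted p = 0.018) was lost without the 3 libraries (adjusted p = 0.17). Tsc22d3 (GILZ), with −0.28 ± 0.05, Klf9 with −0.28 ± 0.04 and Zbtb16 with −0.33 ± 0.06 were lower without overlap. The list's largest fall was in the cell cycle inhibitor gene Cdkn1a, from 3.20 to 4.84 RPKM in controls to 1.48 to 2.30 RPKM after CSDS (−0.88 ± 0.11, adjusted p = 0.00091). Sgk1, a kinase gene induced by the same hormone, was at 16.1 to 26.99 RPKM in controls and 17.7 to 26.6 RPKM after CSDS (0.03 ± 0.16, adjusted p = 0.91).

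Both deiodinase genes of brain thyroid hormone were lower. Dio2 makes the active hormone T3 in astrocytes and Dio3 destroys it in neurons. Dio2 was at 14.5, 13.8, 12.9, 14.3 and 13.8 RPKM in controls 6 to 10 and 9.25, 8.46, 7.35, 7.99 and 9.19 RPKM in CSDS libraries 1 to 5 (−0.69 ± 0.06, adjusted p = 0.00022), with every CSDS library more than 3 RPKM under the lowest control. Dio3 was at 2.12 to 3.45 against 1.44 to 1.89 RPKM (−0.55 ± 0.11, adjusted p = 0.0073). Of 12 genes of hormone transport and response 3 were lower and none higher (median −0.03; 0 higher and 5 lower with equal RPKM sums, 0 and 3 without the 3 libraries).

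At the glutamate synapse the main AMPA receptor genes Gria1 (0.01 ± 0.04, adjusted p = 0.89) and Gria2 (−0.11 ± 0.05, adjusted p = 0.15) were not called. Of 30 AMPA subunit and auxiliary genes 7 were lower and 4 higher. Lower were Cacng2 (−0.30 ± 0.04), which encodes stargazin, Prrt1 (−0.21 ± 0.03), which holds the extrasynaptic receptor pool, and Shisa6 (−0.29 ± 0.06). Of 20 NMDA, kainate and metabotropic receptor genes 6 were lower and 1 higher, among the lower ones the metabotropic receptor gene Grm5 (−0.23 ± 0.05) and the kainate partner Neto2 (−0.28 ± 0.04), both with adjusted p of 0.0086 or less. GABA genes held 2 higher and 1 lower of 22, 13.6% of them called beside 22.4% of all genes. Gabra5, of extrasynaptic receptors, was 0.14 ± 0.03, adjusted p = 0.0072 and Gabbr2, of the metabotropic receptor, −0.16 ± 0.02, adjusted p = 0.0018. Release machinery gave 4 lower of 32, which is the 12.5% of the background, and 8 lower with equal RPKM sums. It included Bsn, the active zone scaffold gene (−0.32 ± 0.04, adjusted p = 0.001), and Syt4, an activity-induced synaptotagmin gene (−0.33 ± 0.04, adjusted p = 0.00043). With single libraries left out, the AMPA genes called higher numbered 2 without control 9 or CSDS 1, the NMDA, kainate and metabotropic gene called higher was lost (0 without control 6, 9 or 10 or CSDS 1, 3 or 4), and GABA genes called higher numbered 4 without control 6 and lower 2 without control 10.

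Voltage-gated sodium, calcium and HCN channels set when a neuron fires and how its dendrites respond. Of 25 such genes 12 were lower and none higher (median −0.11; 9 lower without the 3 libraries). Cacna1i, a T-type calcium channel gene, stood at 8.18, 8.93, 8.01, 8.40 and 7.64 RPKM in controls 6 to 10 and 5.78, 5.86, 6.04, 6.43 and 5.90 RPKM in CSDS libraries 1 to 5 (−0.42 ± 0.04, adjusted p = 0.00034). Every CSDS library lay under every control. Scn4b (−0.34 ± 0.06) and Cacna1g (−0.23 ± 0.05) were lower with smaller steps. Of 50 potassium channel genes 12 were lower and 8 higher. The lower ones included the silent subunit gene Kcnf1 (−0.45 ± 0.06, adjusted p = 0.00084) and Kcna2 (−0.26 ± 0.04, adjusted p = 0.0022), whereas Kcna4 (0.40 ± 0.06) and the inward rectifier gene Kcnj2 (0.38 ± 0.07) rose. With equal RPKM sums 18 potassium channel genes were lower. The potassium channel genes called higher numbered 5 without CSDS 1 or 5.

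Receptors for modulators were lower where they were called, with few exceptions. Of 29 monoamine and acetylcholine receptor genes 9 were lower and 1 higher (4 lower without the 3 libraries). Adra1d, an alpha 1 adrenoceptor gene abundant in the hippocampus, was at 16.2, 16.6, 17.6, 17.6 and 16.2 RPKM in controls 6 to 10 and 14.1, 14.1, 14.02, 14.2 and 13.9 RPKM in CSDS libraries 1 to 5 (−0.25 ± 0.03, adjusted p = 0.00061). CSDS libraries of Adra1d spanned less than 1 RPKM. Drd5, of a D1-like dopamine receptor, was −0.56 ± 0.13, adjusted p = 0.011, Adra2c −0.30 ± 0.05, adjusted p = 0.002 and Htr1a, the serotonin 1A receptor gene, −0.27 ± 0.07, adjusted p = 0.025. The call of Drd5 was lost without the 3 libraries (adjusted p = 0.091), and that of Htr1a without control 6 or 7 or CSDS 1, 3 or 5 alone (adjusted p up to 0.057). Of 28 stress neuropeptide and receptor genes 7 were lower and 2 higher (3 lower without the 3 libraries). Crh, which encodes corticotropin-releasing hormone and is made by hippocampal interneurons, was low, at 0.844 to 1.28 RPKM in controls and 0.442 to 0.763 RPKM after CSDS (−0.55 ± 0.10, adjusted p = 0.0046). Sstr4 (−0.37 ± 0.03, adjusted p = 0.00029) and the delta opioid receptor gene Oprd1 (−0.33 ± 0.04, adjusted p = 0.0011) fell, and Npy1r (0.29 ± 0.05, adjusted p = 0.0038) rose. Penk varied over 11.9 to 26.1 RPKM after CSDS, and its call (0.54 ± 0.18, adjusted p = 0.049) was lost in 14 of 24 alternatives, among them leaving out any library other than CSDS 2 or CSDS 5 (adjusted p up to 0.1). With single libraries left out, monoamine and acetylcholine receptor genes called lower numbered 4 without CSDS 1 or 5, and neuropeptide genes called lower numbered 4 without control 6, 7 or 10 or CSDS 1 or 3.

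Some genes of energy metabolism were higher by small steps, on the deposited scaling. Among nuclear subunits of the respiratory chain, 13 of 36 were higher and 1 lower in complex I, 6 of 14 higher in complexes II and III, 6 of 12 in complex IV and 5 of 16 in the ATP synthase. With equal RPKM sums these counts were 4, 1, 1 and 3, and without the 3 libraries 6, 1, 1 and 3. Sdhb, the iron-sulphur subunit of succinate dehydrogenase, was at 38.6, 40.7, 39.5, 39.5 and 39.0 RPKM in controls 6 to 10 and 46.3, 44.9, 46.1, 45.6 and 45.5 RPKM in CSDS libraries 1 to 5 (0.21 ± 0.02, adjusted p = 0.00029). Its groups were several SD apart although the mean rose by under 1.2-fold. Ndufb4 (0.22 ± 0.03) and Ndufs8 (0.16 ± 0.02) of complex I and Cox6b1 (0.16 ± 0.03) of complex IV were higher as well. Of 13 proteins encoded in mitochondrial DNA 4 were higher and none lower (4 higher and 0 lower with equal RPKM sums, 1 and 0 without the 3 libraries), at levels such as 3996 to 4547 RPKM in controls and 4637 to 5618 after CSDS for mt-Nd1 (0.26 ± 0.07, adjusted p = 0.024). Leaving out controls 7 or 8 or CSDS 1, 3 or 5 ended the mt-Nd1 call (adjusted p up to 0.057). In the tricarboxylic acid cycle 8 of 19 were higher and none lower (4 higher and 0 lower with equal RPKM sums, 5 and 0 without the 3 libraries), led by Idh2, at 12.1 to 14.5 RPKM in controls and 16.6 to 18.4 RPKM after CSDS (0.36 ± 0.05, adjusted p = 0.001). Glycolysis gave 7 higher and 3 lower of 23 (3 higher and 3 lower with equal RPKM sums, 1 and 1 without the 3 libraries). Gapdh (0.18 ± 0.03) and Eno1 (0.18 ± 0.04) were higher, and Pfkfb3, whose product makes the activator of phosphofructokinase, was lower at 6.35, 6.06, 6.33, 6.38 and 6.00 RPKM in controls 6 to 10 and 4.66, 4.86, 4.55, 4.74 and 4.74 RPKM in CSDS libraries 1 to 5 (−0.37 ± 0.03, adjusted p = 0.00014). Single libraries moved these counts too. The complex I genes called higher numbered 8 without control 8, those of complexes II and III 2 without control 6 or 9 or CSDS 4 and 3 without control 7 or CSDS 5, and the mitochondrially encoded ones 1 without control 7 or 8 or CSDS 1, 3 or 5 and 2 without control 9 or CSDS 2.

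Some ribosomal protein genes were slightly higher: 13 of 46 large-subunit and 6 of 32 small-subunit genes were higher and none lower, with medians of 0.09 and 0.07. Those counts were 5 and 2 with equal RPKM sums and 6 and 1 without the 3 libraries. On the deposited scaling 28.3% of the large-subunit and 18.75% of the small-subunit genes were called. Over all genes 22.4% were called, 9.88% higher and 12.5% lower. Rpl7a (67.8 to 75.0 RPKM in controls and 80.3 to 86.1 RPKM after CSDS; 0.20 ± 0.03, adjusted p = 0.002), Rpl35 (0.16 ± 0.02) and Rps25 (0.16 ± 0.03) had small p. Many ribosomal protein genes have near-identical pseudogenes that share their reads. Mitochondrial ribosomal proteins gave 11 higher and 4 lower of 75, a median of 0.02 (6 higher and 10 lower with equal RPKM sums, 6 and 2 without the 3 libraries). In that list 20% were called, beside 22.4% of all genes. Mrps18b was among the higher ones (0.29 ± 0.04, adjusted p = 0.0014). With single libraries left out, small-subunit genes called higher numbered 2 without CSDS 3 or 5 and 3 without control 7 or CSDS 4.

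Several sterol genes were higher. SREBP2 drives cholesterol synthesis and uptake when cell sterol is low, and 8 of 25 genes of the pathway were higher and none lower (median 0.12; 3 without the 3 libraries and 3 with equal sums). Lss, encoding lanosterol synthase, was at 3.26, 3.40, 3.54, 3.41 and 2.94 RPKM in controls 6 to 10 and 4.14, 4.11, 4.56, 4.31 and 4.15 RPKM in CSDS libraries 1 to 5 (0.32 ± 0.05, adjusted p = 0.0018). Every CSDS library of Lss lay above every control. It was joined by Insig1, a sterol sensor partner (0.25 ± 0.04), while Hmgcs1 was 0.20 ± 0.07, adjusted p = 0.071. Antioxidant genes driven by NRF2 gave 6 higher, Gsr among them (0.21 ± 0.03, adjusted p = 0.0022), and 1 lower of 19, Txnrd1 (−0.15 ± 0.03, adjusted p = 0.0049). That list gave 3 higher and 2 lower with equal RPKM sums, 3 and 0 without the 3 libraries. Of 15 hypoxia-responsive genes 3 were lower and none higher (5 lower with equal RPKM sums), with Ndrg1 at 19.2 to 22.9 RPKM in controls and 14.4 to 16.4 RPKM after CSDS (−0.48 ± 0.06, adjusted p = 0.00057). With single libraries left out, the sterol genes called higher numbered 5 without CSDS 3 or 4, and the NRF2 genes called lower 2 without CSDS 3.

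**Figure D4:**
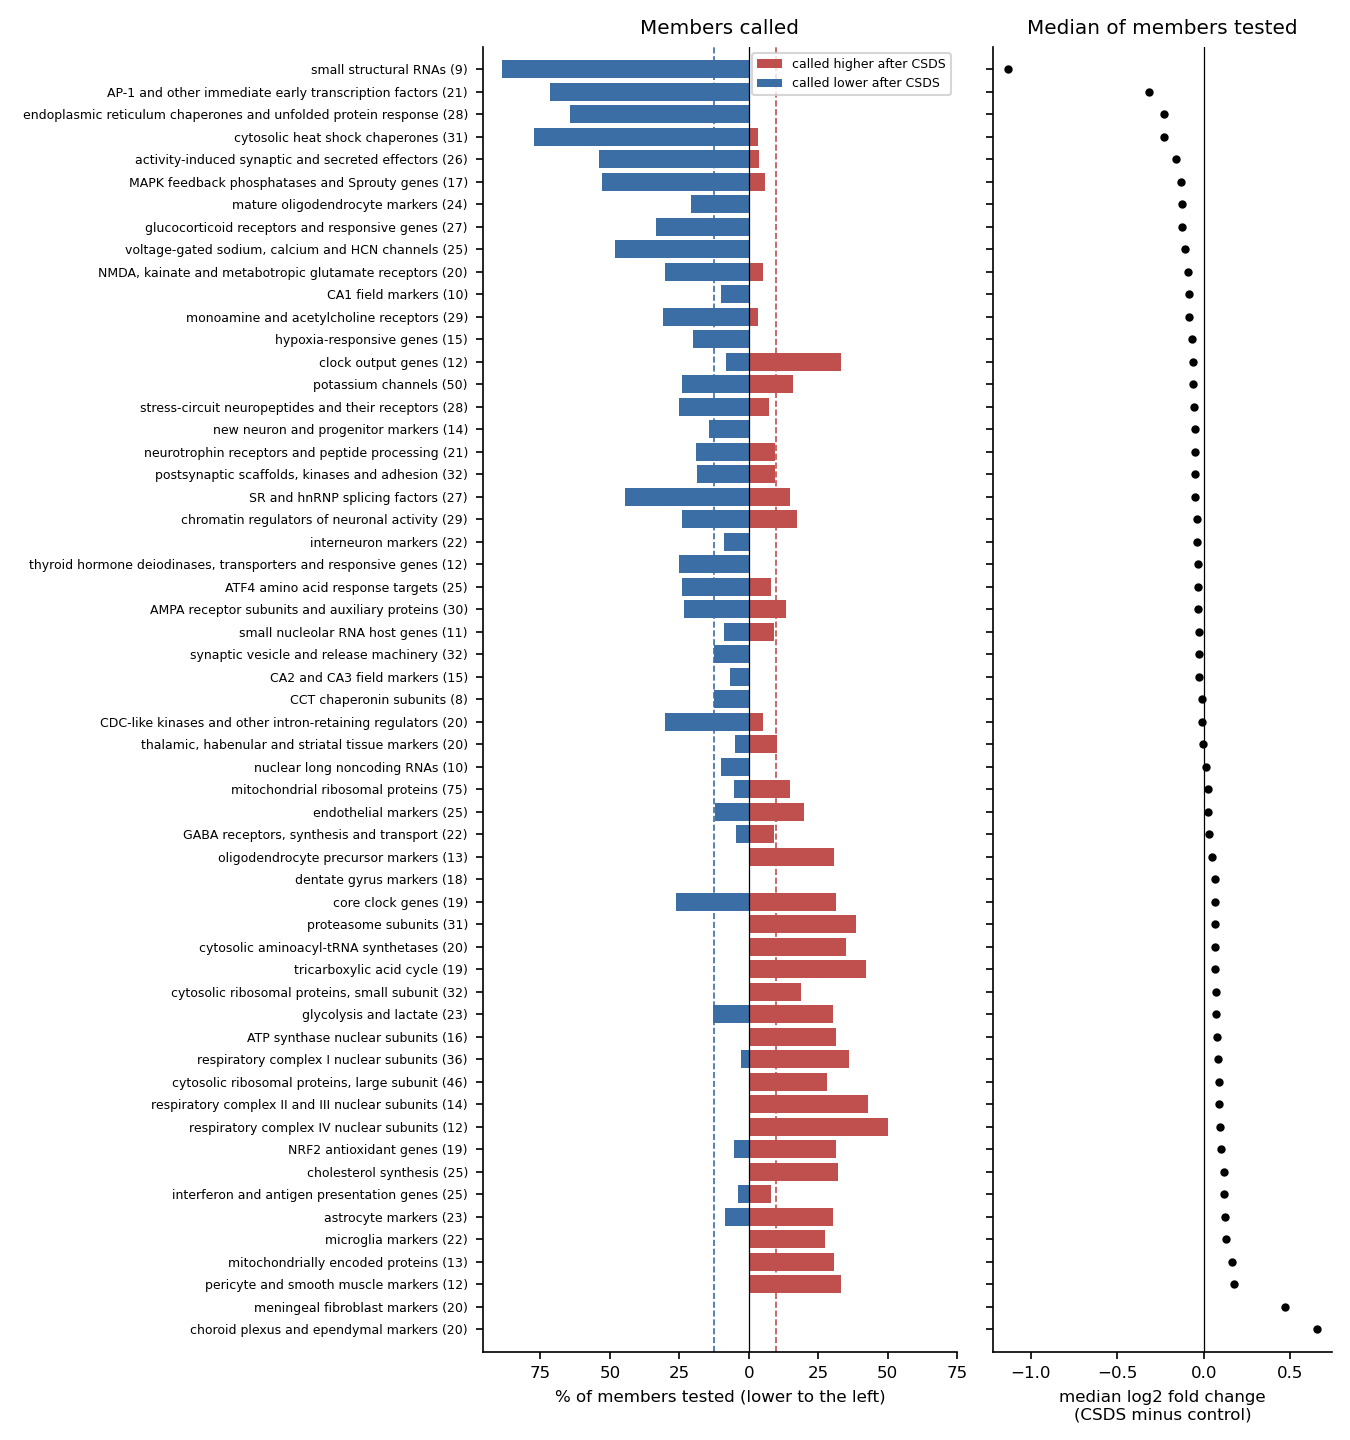
Share of tested members called higher (red, to the right) and lower (blue, to the left) after CSDS in the 57 lists with at least 8 members tested, and the median log2 fold change of each list, sorted by the median, with the number tested in brackets. Dashed lines mark the 9.88% higher and 12.5% lower over all 18274 genes. The structural RNA, immediate early, chaperone and ER lists reach furthest to the left, and the choroid and meningeal lists have the highest medians with no member called.

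Glial markers changed in part. Of microglial, astrocyte, mature oligodendrocyte and precursor markers, 27.3%, 39.1%, 20.8% and 30.8% were called. Over all genes 22.4% were called, 9.88% higher and 12.5% lower. Microglial markers, of the brain's resident macrophages, included 6 of 22 higher and none lower (median 0.13; 4 higher and 0 lower with equal RPKM sums, 5 and 0 without the 3 libraries), and the summed level of all 22 in the table was 244 to 289 RPKM in controls and 274 to 317 RPKM after CSDS. P2ry12, a purine receptor of homeostatic microglia, was at 11.3, 10.6, 10.1, 11.6 and 10.4 RPKM in controls 6 to 10 and 16.9, 14.6, 13.7, 14.2 and 16.2 RPKM in CSDS libraries 1 to 5 (0.46 ± 0.06, adjusted p = 0.00096). The groups of P2ry12 did not overlap. Cd68 (0.37 ± 0.07) was higher likewise, while the call of Trem2 (0.23 ± 0.07, adjusted p = 0.03) was lost without controls 6, 7, 8 or 9 or CSDS 1 or 5 (adjusted p up to 0.072). Astrocyte markers gave 7 higher and 2 lower of 23 (4 higher and 2 lower with equal RPKM sums, 4 and 0 without the 3 libraries). Gpr37l1 (0.28 ± 0.05), Ntsr2 (0.27 ± 0.04) and Aldh1l1 (0.26 ± 0.04) rose, the water channel gene Aqp4 fell (−0.14 ± 0.03, adjusted p = 0.015) and Gfap, which rises in reactive astrocytes, was at 61.5 to 67.5 RPKM in controls and 61.3 to 94.4 RPKM after CSDS (0.21 ± 0.11, adjusted p = 0.17). Of 24 mature oligodendrocyte markers 5 were lower and none higher (6 lower with equal RPKM sums and 3 without the 3 libraries). Ermn was at 23.2, 22.2, 18.5, 21.7 and 16.4 RPKM in controls 6 to 10 and 13.7, 14.9, 13.1, 14.7 and 13.3 RPKM in CSDS libraries 1 to 5 (−0.52 ± 0.09, adjusted p = 0.0028), and Myrf, the myelin regulator, was lower (−0.30 ± 0.06). Precursor markers gave 4 of 13 higher (2 with equal RPKM sums and 2 without the 3 libraries), among them Pdgfra (0.32 ± 0.06) and Ptprz1 (0.19 ± 0.02). With single libraries left out, astrocyte markers called higher numbered 4 without CSDS 1 or 3, those called lower 1 without control 6, 7 or 9 or CSDS 2, 3 or 4, and oligodendrocyte markers called lower 8 without control 10.

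Few markers of the hippocampal fields and neuron classes were called. None of 18 dentate markers was called, 1 of 10 CA1 markers and 1 of 15 CA2 and CA3 markers were lower, and 2 of 22 interneuron markers were lower, in each case with none higher and a share at or under 12.5%. With equal RPKM sums 4 CA1 markers were lower. The CA1 gene was Gpr161 (−0.41 ± 0.06, adjusted p = 0.0023) and an interneuron gene was Nos1 (−0.27 ± 0.05, adjusted p = 0.0065). New neuron and progenitor markers gave 2 lower of 14, a share of 14.3%, near the 12.5% of all genes. Neurod2, 1 of those 2, was at 27.4 to 35.6 RPKM in controls and 20.5 to 24.8 RPKM after CSDS (−0.44 ± 0.07, adjusted p = 0.0022). Markers of neighbouring thalamus, habenula and striatum summed to 103 to 119 RPKM in controls and 104 to 135 RPKM after CSDS over all 22 listed ones in the table, and 2 of 20 were higher and 1 lower. The lower one was Slc17a6, encoding the vesicular glutamate transporter of thalamic cells, at 6.63, 6.17, 6.40, 6.18 and 4.78 RPKM in controls 6 to 10 and 3.96, 3.79, 4.71, 4.98 and 3.71 RPKM in CSDS libraries 1 to 5 (−0.47 ± 0.10, adjusted p = 0.008), where control 10 lay under the other controls. Single libraries moved these small counts: CA1 markers called lower numbered 2 without control 10 or CSDS 4, CA2 and CA3 markers called higher 1 without control 6 or 7, dentate markers called higher 2 without control 8, interneuron markers called lower 1 without control 6, 7 or 9 or CSDS 1 or 3, new neuron markers called lower 1 without control 7 or 8 or CSDS 5 and thalamic markers called higher 0 without control 6, 7, 8 or 10 or CSDS 1, 3 or 4 and 1 without control 9.

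Red cell genes were higher after CSDS, most of all in CSDS 3. Of 5 red cell markers tested all 5 were higher, and the sum over all 7 listed in the table was 206 to 297 RPKM in controls and 559 to 2808 RPKM after CSDS, with the top of the CSDS range from library 3. Hbb-bs, a beta globin gene, was at 51.8, 59.7, 71.7, 47.9 and 62.6 RPKM in controls 6 to 10 and 145, 142, 676, 182 and 148 RPKM in CSDS libraries 1 to 5 (1.82 ± 0.39, adjusted p = 0.0086). All 5 CSDS libraries exceeded all controls, and the call stood without CSDS 3 (adjusted p = 0.00054). The globin pairs Hba-a1 and Hba-a2, and Hbb-bs and Hbb-bt, are near-identical copies. Slc4a1, a red cell membrane marker, had a mean under 0.5 RPKM and was not tested. Smooth muscle and pericyte markers gave 4 of 12 higher (3 with equal RPKM sums and 3 without the 3 libraries), and all 14 in the table, tested or not, summed to 62.3 to 91.2 RPKM in controls and 75.4 to 98.6 RPKM after CSDS. Tagln was at 2.54, 2.695, 3.41, 3.06 and 4.93 RPKM in controls 6 to 10 and 5.21, 5.19, 7.35, 4.66 and 6.57 RPKM in CSDS libraries 1 to 5 (0.73 ± 0.16, adjusted p = 0.011), and its groups overlapped. Endothelial markers went both ways (5 higher and 3 lower of 25; 3 higher and 3 lower with equal RPKM sums, 4 and 2 without the 3 libraries). Cldn5, the tight junction gene of the blood-brain barrier, was at 16.2, 18.7, 17.04, 16.9 and 19.7 RPKM in controls 6 to 10 and 12.1, 12.6, 14.5, 11.97 and 11.8 RPKM in CSDS libraries 1 to 5 (−0.48 ± 0.07, adjusted p = 0.0013), Flt1, a VEGF receptor gene, was lower (−0.27 ± 0.04), and Slco1a4, a barrier transporter gene, rose by 0.38 ± 0.08. The part that blood and vessel content plays in these differences was not tested. With single libraries left out, smooth muscle and pericyte markers called higher numbered 2 without control 6 or 9 or CSDS 5, and endothelial markers called higher 1 without CSDS 3 or 5, 2 without control 6, 7 or 9 and 3 without CSDS 1 or 4.

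Choroid plexus and meningeal genes had high medians, 0.65 and 0.47, with 0 of 20 and 0 of 20 called. Ttr was at 16.9, 2391, 4739.7, 1476 and 3489.8 RPKM in controls 6 to 10 and 2798, 2928, 3596, 3606 and 3169 RPKM in CSDS libraries 1 to 5 (1.68 ± 1.30, adjusted p = 0.38). Control 6 lay far under every other library, and the CSDS libraries lay inside the range of the other 4 controls. Summed over all listed markers in the table, 20 choroid and 21 meningeal, choroid markers lay at 122 to 5865 RPKM in controls and 3507 to 4502 RPKM after CSDS, and meningeal ones at 64.9 to 281 RPKM in controls and 164 to 251 RPKM after CSDS. Interferon and antigen presentation genes gave 2 higher and 1 lower of 25, 12% of them called beside 22.4% of all genes. Ifit3 was higher without overlap, at 3.50, 3.78, 3.35, 3.18 and 4.28 RPKM in controls 6 to 10 and 7.50, 5.83, 7.16, 5.91 and 10.5 RPKM in CSDS libraries 1 to 5 (0.91 ± 0.14, adjusted p = 0.002). Its neighbour and close copy Ifit3b rose by 0.87 ± 0.11. The counts here depended on single libraries: meningeal genes called higher numbered 1 without control 8 and 6 without control 10, choroid genes called higher 1 without control 8, interferon genes called higher 1 without control 6, 7 or 9 or CSDS 3 or 5 and interferon genes called lower 0 without control 7, 8 or 9 or CSDS 1, 2 or 3.

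Small structural RNAs had the lowest median of all lists. They carry no poly(A) tail, so poly(A) selection should remove most of them. Of 9 tested (of 17 listed) 8 were lower and none higher, with a median of −1.13 (5 lower without the 3 libraries). The 5.8S ribosomal RNA gene n-R5-8s1 was at 133, 96.9, 31.6, 88.9 and 159 RPKM in controls 6 to 10 and 32.1, 15.3, 21.7, 13.1 and 22.4 RPKM in CSDS libraries 1 to 5 (−2.14 ± 0.40, adjusted p = 0.0048), and its groups overlapped at control 8 and CSDS 1. Rn7sk, the RNA that holds the elongation factor P-TEFb, was at 14.01, 15.3, 7.73, 9.17 and 19.9 RPKM in controls 6 to 10 and 6.57, 6.09, 5.51, 3.32 and 6.78 RPKM in CSDS libraries 1 to 5 (−1.12 ± 0.26, adjusted p = 0.012). The signal recognition particle RNA Rn7s1 was −1.15 ± 0.19, adjusted p = 0.0025. Here 9B went with the CSDS libraries, at 15.3 RPKM of n-R5-8s1, 3.54 of Rn7sk and 8.22 of Rn7s1, and with 9B counted as a control Rn7sk, Rn7s1, Rn7s2 and Rn7s6 were no longer called. Replication-dependent histone messages also end without a poly(A) tail. All 11 Hist1h4 genes tested and 12 of 13 Hist1h2b genes were lower, with medians of −0.69 and −0.37. Neither the 2 Hist1h1 genes tested (median 0.13) nor the Hist1h2a gene (−0.15) was called. These families share sequence, so their members are not independent, and they were singled out after their values were seen. Whether RNA selection differed between the groups was not tested. Malat1, a nuclear RNA with a protected end, was at 93.3 to 172 RPKM in controls and 101 to 126 RPKM after CSDS (−0.19 ± 0.14, adjusted p = 0.36).

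Several of the largest single differences were at gene copies. Pisd-ps1, a pseudogene copied from Pisd, whose enzyme makes phosphatidylethanolamine in mitochondria, was at 28.5, 28.6, 35.0, 30.3 and 50.1 RPKM in controls 6 to 10 and 150.4, 116, 174, 124 and 157 RPKM in CSDS libraries 1 to 5 (2.07 ± 0.16, adjusted p = 0.00014), 4.19-fold higher, and Pisd-ps2 (1.91 ± 0.15) and Pisd (0.83 ± 0.07) rose with it. Such copies share reads. Tmem254a, Tmem254b and Tmem254c, 3 copies on chromosome 14, were higher by a median of 0.86, and 4 Fam205a copies on chromosome 4 were lower by 0.57 at the median. Among other genes, Gkn3 (1.11 to 1.66 RPKM in controls and 2.89 to 5.50 RPKM after CSDS; 1.37 ± 0.17, adjusted p = 0.00087), Wdfy1 (0.96 ± 0.09), Miip (0.94 ± 0.18) and Zfp46 (0.73 ± 0.06) were higher. Zfp125 (−1.30 ± 0.32), Rec8 (−1.32 ± 0.13), Alox12b (−0.99 ± 0.14) and Gstm6 (−0.85 ± 0.13) were lower. Within CSDS, Zfp125 and Gstm6 split the libraries: 2 and 4 against 1, 3 and 5, with Zfp125 at 2.09, 0.451, 2.23, 0.486 and 2.28 RPKM in CSDS 1 to 5 and 3.65 to 4.34 RPKM in controls. That split, like Miip, Rec8, Gstm6 and the Tmem254 and Fam205a copies, was singled out after the values were seen, and it was not tested. The genes with the smallest p among well-expressed ones changed little but evenly, for example Usp31 (−0.33 ± 0.02, adjusted p = 0.00014), Fam133b (−0.40 ± 0.03, adjusted p = 0.00014), Cndp2 (0.25 ± 0.02, adjusted p = 0.00023) and Slc25a11 (0.24 ± 0.02, adjusted p = 0.00034).

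Whether the effect of defeat differed in libraries labelled Nrsn2-KO was tested as an interaction over 20 libraries, 5 in each group, and the 2 contrasts share no library. Of 18263 genes 27 (0.148%) differed, a count that was 244 without control 10, 68 without control 8 and 16 without control 9. All 27 were called in WT, all had a smaller effect under the knockout label, and 21 had no call there. Of the 27, 5 (18.5%) lay on chromosome 4, beside 6.70% of the genes tested, all between 141.01 and 148.4 Mb. In that stretch 37 of 92 tested genes (40.2%) were called in WT, beside 22.4% of all genes. Those 5 genes set its ends and are counted among the 37, so its share is not independent of them. The reason for this shared position was not tested. Pisd-ps1 changed by 0.32 in libraries labelled knockout against 2.07 in WT, Wdfy1 by 0.14 against 0.96, Zfp982 by −0.08 against 1.68, mt-Tg, a mitochondrial tRNA gene, by −0.15 against −1.22 and Rec8, a meiotic cohesin gene, by 0.67 against −1.32. The activity, chaperone, cold and clock genes described above did not pass this test: Fos −1.08 against −1.37, Homer1 −0.59 against −0.81, Hspa5 −0.61 against −0.79, Rbm3 0.59 against 0.72 and Dbp 0.91 against 0.72 (interaction adjusted p of 0.36 to 0.75). A p of that size does not show that the effects were equal. Those 5 genes were also called under the knockout label, but others described above were not. Pcsk1 was −0.11 there against −0.56 in WT, Arc −0.28 against −0.45 and Nr4a1 −0.17 against −0.26. Stip1 was −0.14 against −0.27 and Hspa8 −0.15 against −0.29. Their limma adjusted p under the label was 0.069 to 0.49, and their interactions did not pass (adjusted p of 0.16 to 0.79). Hbb-bs, P2ry12 and Ifit3 differed by −0.45, 0.11 and −0.08 under the knockout label, and their interactions did not pass (adjusted p = 0.051, 0.17 and 0.07).

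**Figure D5:**
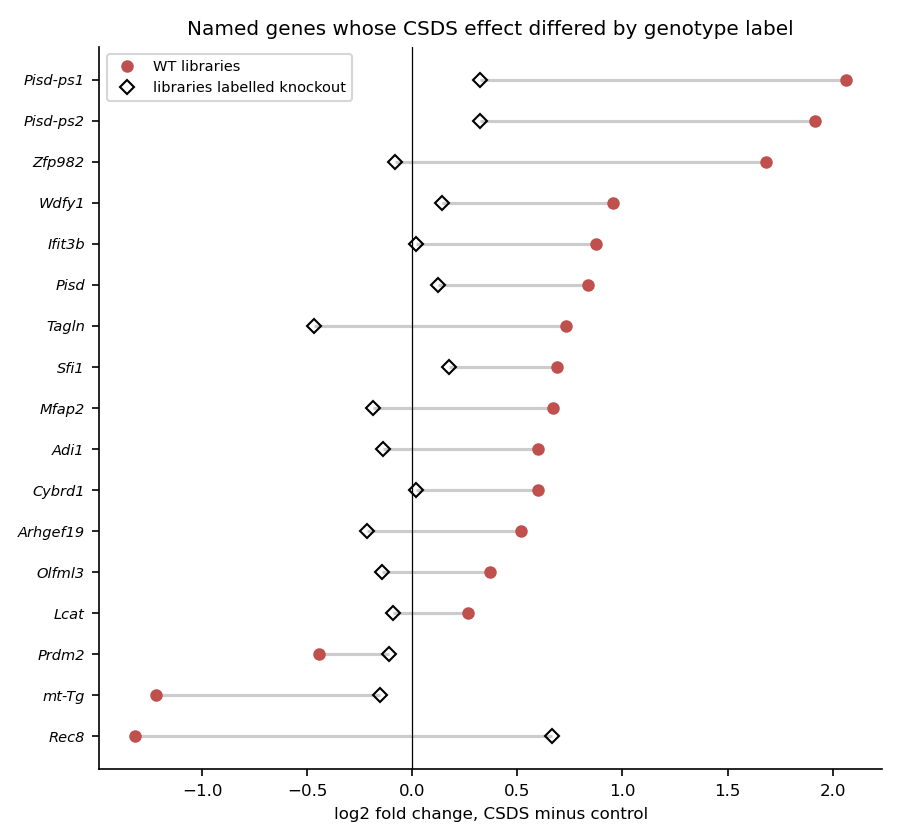
Log2 fold change (CSDS minus control) in WT libraries (red) and in libraries labelled knockout (open diamonds) for 17 of the 27 genes whose effects differed at adjusted p under 0.05, those named in the text, sorted by the WT effect. In all 17 the diamond lies nearer 0 than the WT point.

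Calls varied with the span and level of genes. Over 5 equal bins of gene span, from a median of 525 bases to 114718 bases, the share called lower went 8.74%, 10.7%, 11.2%, 14.7% and 17.4%, and the share called higher went 8.48%, 13.4%, 10.8%, 9.604% and 7.37%. Over 5 equal bins of mean RPKM the share called lower went 5.47%, 9.06%, 13.98%, 18.9% and 15.2%. Long genes were thus lower more often, and low genes were called less often in either direction. Among classes of the GENCODE M21 annotation, 13.6% of 13836 protein-coding genes were lower and 10.5% higher, beside 9.55% and 8.49% of 1413 long noncoding genes. The promoter motifs of other factors are given by the shares of their tested genes called, beside 12.9% lower and 10.7% higher of all tested genes with a promoter. AP-1 (TGANTCA) had 9.10% lower and 13.01% higher of 692 genes (7.81% of promoters), and ETS (CCGGAAGT) 11.6% lower and 9.44% higher of 932 genes (3.89% of promoters). The CCAAT box (CCAATCA) had 13.6% lower and 11.1% higher of 1284 genes (7.82% of promoters), the TATA box (TATAAA) 10.7% lower and 11.6% higher of 994 genes (13.6% of promoters) and YY1 15.6% lower and 10.2% higher of 186 genes (0.633% of promoters). The NRF1 motif had 11.4% lower and 11.0% higher of 245 genes (0.971% of promoters), the CRE core (TGACG, which the full palindrome also holds) 14.4% lower and 10.2% higher of 3902 genes (20.8% of promoters), the amino acid response element (TGATGCAA) 15.4% lower and 14.1% higher of 78 genes (0.895% of promoters) and the SRF box 10.4% lower and 10.4% higher of 183 genes (1.63% of promoters). The MEF2 motif lay in 15 tested genes (0.110% of promoters), of which 1 was lower and 3 were higher.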

How the data were processed

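RNA of hippocampal tissue was made into TruSeq V2 poly(A) libraries and read as single ends of 75 bases, per the labels' protocols. Reads were aligned with STAR to mm10, per the submitters' processing notes, and the sources used here do not name the annotation, the counting tool or the STAR version. The authors deposited RPKM per gene and library, with their own group means, per the file headers. The deposited tables also hold the authors' log2 fold changes, likelihood ratio scores, p-values and false discovery rates; of these only the false discovery rates and directions were used. Of 39017 gene IDs, 37607 (96.4%) have the same coordinates in GENCODE M21. Depth was recovered from the steps of low RPKM values, where 94.4% to 95.3% of values lay within 0.05 of a whole read.

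From the RPKM, log2(RPKM + 0.5) was computed for genes with a mean of at least 0.5 RPKM and fitted with limma 3.58.1 (trend, two-sided, Benjamini-Hochberg) in R 4.3.3, with Python 3.11.15 for the rest. The fit was tested on simulated data. Library 9B was left out because its title and treatment field disagree. Nothing in the labels says that the libraries come from separate animals, so the p-values measure the spread among them, which may be technical. The comparison, gene lists (59, with 1265 of 1324 symbols tested) and motifs were chosen with earlier results of these data known, and lists are described by counts and medians. Genes named are list members of smallest p or stated role, the 15 highest and 15 lowest effects among called genes of at least 1 RPKM without overlap, the 15 smallest p in each direction at 5 RPKM or more, and known stress genes; names outside this rule were chosen after their values were seen. Promoters came from RefSeq (GRCm38.p6), matched for 11400 tested genes. Alternatives covered the pseudocount, filter, scaling, variance model, groups fitted, 9B, each library left out and a replicate block.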

Additional observations from a re-analysis of the deposited data

Results flagged for a closer look

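Within each group of 5 libraries, the highest and the lowest library were set against the others for the 209 genes followed. In 24 of 418 such groups (5.74%) an end library lay apart, with a gap to its neighbour above 0.71 of the whole range, where chance gives about 1 group in 20. CSDS 3 stood above the other CSDS libraries in the globin genes, with RPKM of Hba-a1 at 654 against 129 to 155, Hba-a2 at 801 against 152 to 187, Hbb-bs at 676 against 142 to 182 and Hbb-bt at 668 against 133 to 175. It also stood apart in Ndrg1 at 16.4 against 14.4 to 14.9 and Arntl at 7.37 against 7.81 to 7.97 RPKM. Control 6 stood apart from the other controls in S100a10 at 8.18 against 7.12 to 7.38 and Ttr at 16.9 against 1476 to 4739.7 RPKM, and control 10 in Egr3 at 19.5 against 23.9 to 25.7, Slc17a6 at 4.78 against 6.17 to 6.63, Olfml3 at 3.36 against 2.78 to 2.90, Flt1 at 6.08 against 5.45 to 5.56, Nos1 at 11.4 against 9.49 to 9.99, Pisd at 18.2 against 15.6 to 16 and Gstm6 at 4.85 against 4.15 to 4.30 RPKM. Control 7 stood above the other controls, with RPKM of Dusp1 at 5.42 against 4.15 to 4.36, Hsp90aa1 at 317 against 279 to 288 and Syt4 at 47.6 against 42.8 to 43.4, and CSDS 4 above the other CSDS libraries, with RPKM of Syvn1 at 8.24 against 7.66 to 7.74, Scn4b at 4.45 against 3.86 to 3.96 and Ntsr2 at 52.7 against 45.7 to 47.0. Single genes stood apart in other libraries: Zfp982 in control 8 at 1.17 against 0.0440 to 0.220 RPKM, Cry1 in control 9 at 2.67 against 3.03 to 3.11 RPKM and Ndufs8 in CSDS 5 at 52.0 against 48.5 to 49.4 RPKM.

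The effect of defeat differed with the Nrsn2-KO label in the interaction test for 17 of the genes followed. Each value is the log2 effect in libraries labelled knockout minus that in WT, with both effects after it. Genes higher in WT were Olfml3 (−0.52, from 0.37 to −0.15), Tagln (−1.20, from 0.73 to −0.47), Pisd (−0.71, from 0.83 to 0.12), Pisd-ps1 (−1.74, from 2.07 to 0.32), Pisd-ps2 (−1.59, from 1.91 to 0.32), Wdfy1 (−0.81, from 0.96 to 0.14), Zfp982 (−1.77, from 1.68 to −0.08), Adi1 (−0.74, from 0.60 to −0.14), Mfap2 (−0.86, from 0.67 to −0.19), Arhgef19 (−0.73, from 0.52 to −0.21), Cybrd1 (−0.58, from 0.60 to 0.02), Lcat (−0.35, from 0.26 to −0.09), Sfi1 (−0.52, from 0.69 to 0.18) and Ifit3b (−0.86, from 0.87 to 0.02). Genes lower in WT were Prdm2 (0.33, from −0.44 to −0.11), mt-Tg (1.07, from −1.22 to −0.15) and Rec8 (1.99, from −1.32 to 0.67). Adi1 codes for an enzyme of methionine salvage, Lcat for the cholesterol esterifying enzyme of plasma lipoproteins, Olfml3 is a microglial marker and Prdm2 encodes a histone methyltransferase.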

How the results depend on the processing

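The count of 4093 genes called stayed between 3544 and 4729 under pseudocounts of 0.1 and 1, no filter or a mean of at least 1 RPKM, 3 rescalings, limma without trend, robust or weighted fits, 4 groups in one fit, and 9B as a control. It was 1240 with 9B as CSDS (1239 of the 4093 kept), 1883 without controls 6 and 10 and CSDS 3, a setting chosen after seeing the data (1762 kept), and 3077 to 4016 when single libraries were left out, with 72.9% to 86.0% of the calls kept. With equal RPKM sums 81.0% of the calls were lower, against 55.9%, while median ratio scaling gave 52.0% and quantile normalization 51.3%. The interaction count of 27 was 21 to 36 under 2 pseudocounts and 2 rescalings and 16 to 244 when single WT libraries were left out: 68 without control 8, 16 without control 9 and 244 without control 10. With a replicate block for the shared numbers it was 23, of which 17 were among the 27. Same-numbered libraries correlated at −0.11 to 0.42 in their deviations, and 4 of 10 correlated best with their own number, so the numbers were not taken as pairs. Of 184 called genes followed, 114 were called under every alternative that tested them, which for Rec8 and Derl3 was 23 of the 24. No effect changed sign among called ones. Besides Fkbp5 and Drd5 (given with the results), the calls lost without the 3 libraries were those of Aqp4, Cox6b1, Dusp1, Eno1, Gapdh, Hspe1, Ndn, Nr4a1, Per2, Phgdh, Rn7sk, Spred3, Txnrd1 and Zfp125 (adjusted p of 0.051 to 0.097) and of Atf4, Canx, Cct4, Htr1a, mt-Nd1 and Penk (0.056 to 0.18). With equal RPKM sums the calls of Gabra5, Hspa2, Penk, Spred3 and Trem2 ended (0.059 to 0.2), as did that of Asns, and with 4 groups in one fit those of Aqp4, Atf4, Kcna2 and Tsc22d3 (0.058 to 0.083). No filter ended those of Penk, mt-Nd1 and Trem2 (0.085, 0.31 and 0.059), quantile normalization mt-Nd1 (0.29), array weights Canx (0.051), and limma without trend or robust moderation Penk (0.058 and 0.057). With 9B as a control the 4 structural RNA calls named above ended, and with 9B as CSDS 59 of the followed calls. Of 27 uncalled genes followed, 7 were called in some alternative: Npas4, Hspd1, Hsf1, Ddit3, Nr1d1, Hmgcs1 and Scg5. The cause was not tested in any case. At a median of 46.94 M reads, low genes were called less often.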

Other observations

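Scg5, which encodes the 7B2 chaperone of peptide convertases, and Ndn, an imprinted neuronal gene, were named after their values were seen. Scg5 was at 164, 91.7, 79.2, 159 and 154 RPKM in controls 6 to 10 and 84.5, 86.1, 80.4, 83.5 and 88.8 RPKM in CSDS libraries 1 to 5 (−0.55 ± 0.20, adjusted p = 0.068). Ndn was at 59.5, 62.2, 96.8, 59.1 and 48.6 RPKM in controls 6 to 10 and 97.8, 118, 115, 113 and 101 RPKM in CSDS libraries 1 to 5 (0.77 ± 0.15, adjusted p = 0.0058; adjusted p = 0.06 without controls 6 and 10 and CSDS 3). Scg5 thus fell into separate levels within the controls, with 6, 9 and 10 high and 7 and 8 near the CSDS libraries. For Ndn control 8 was close to the CSDS range, and the other controls were well under it. The excluded 9B held 154 RPKM of Scg5 and 58.0 RPKM of Ndn.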
